A study of Arabidopsis thaliana with 7 samples.

Results

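The regions described here are the ZF-DDR5 peaks that lie in intergenic sequence close to a gene. A peak was a member when its centre fell outside every protein-coding gene, pseudogene and non-coding gene and no further than 1000 bp from the closest protein-coding gene edge. Of 9999 peaks, 381 were members, or 3.81% (Wilson 95% interval 3.45% to 4.20%, which covers counting error only). The list came from chromatin immunoprecipitation with sequencing (ChIP-seq) on seedlings of Arabidopsis thaliana at day 12, and belongs to ZF-DDR5 replicate 1, whose genotype and treatment are both given as ZF-DDR5. The series also holds a further ZF-DDR5 sample, 2 of ZF-DDR4 and 3 of Col-0, the untransformed strain, whose peaks were not analysed here. Of the Col-0 samples, 1 carries g3 in its title, as do both ZF-DDR5 samples, and the titles do not say what g3 stands for. The sources used here do not give the promoter that drives the ZF-DDR5 transgene or the number of lines behind it, and no antibody is listed for these samples, although the shared protocol names anti-FLAG. There was 1 list, so its values have no replicate error, and whether Col-0 seedlings give the same peaks was not analysed here.

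DDT-domain proteins such as DDR4 and DDR5 are partners of ISWI ATPases, which slide nucleosomes and set their spacing along genes. Engineered zinc fingers fused to chromatin proteins have been used in Arabidopsis to bring them to FWA, a homeodomain gene whose promoter repeats carry DNA methylation in wild-type plants and which is silent in seedlings for that reason. The genome of Arabidopsis is compact, so the sequence between neighbouring genes is often short and can serve as the promoter of either gene or as the end of both. Gene edges, symbols and types came from the RefSeq gene table of TAIR10.1, which gives no strand. Whether an edge is the start or the end of its gene, and whether neighbours run towards or away from each other, was therefore not analysed here, and no gene coordinates are printed. Peak positions are in TAIR10, counted from 1. No genome sequence was used, so no sequence is printed.

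Intergenic sequence near genes held fewer peaks per Mb than genes did. The 381 members lay in 22.7 Mb of such sequence, a density of 16.8 per Mb (Poisson 95% interval 15.2 to 18.6, for counting error only). Intergenic sequence further than 1000 bp from a protein-coding gene held 293 peaks at 14.6 per Mb (13.0 to 16.4), an interval that overlaps the first. Protein-coding genes held 8493 at 132 per Mb (129 to 135). Pseudogenes and non-coding genes held 832 at 69.9 per Mb (65.2 to 74.8). The members' density was 16.8 ± 2.20 per Mb (SD over n = 5 chromosomes), lowest on chromosome 1 with 15.2 and highest on chromosome 3 with 20.6. Chromosomes 1, 3 and 5 each held 89 members, chromosome 2 held 59 and chromosome 4 held 55. The rule that the centre lies outside every gene left out 194 further centres within 1000 bp of a protein-coding gene, which fell in a pseudogene or a non-coding gene. Just inside the limit, the 3 furthest members lay 978.5, 981 and 999 bp from an edge, beside ATHM3, PECT1 and STOMAGEN. The nearest peaks beyond it lay at 1011.5, 1013 and 1014 bp.

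The members were narrower than peaks in genes and wider than peaks far from them. Their median width was 441 bp, with quartiles at 345 and 639 bp and a range from 281 to 1602 bp. Peaks in protein-coding genes had a median of 492 bp, those in pseudogenes or non-coding genes 465.5 bp, and intergenic peaks further away 406 bp. The median of the members was below that of peaks in protein-coding genes on 5 of 5 chromosomes and above that of the further intergenic peaks on 5 of 5. It was below that of peaks in pseudogenes or non-coding genes on 4 of 5. Over chromosomes it was 442 ± 13.0 bp (SD, n = 5), against 492 ± 7.54 bp in protein-coding genes. Peaks of over 700 bp, the upper quartile of the whole list, made up 19.7% of the members, 25.8% of the peaks in protein-coding genes and 10.9% of the further intergenic peaks. The 216 members that touched no protein-coding gene had a median width of 382.5 bp, below the 406 bp of the further intergenic peaks. Touching no gene so close by favours narrow peaks. Peaks of 1 list are not replicates, so these differences were not tested.

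**Figure D1:**
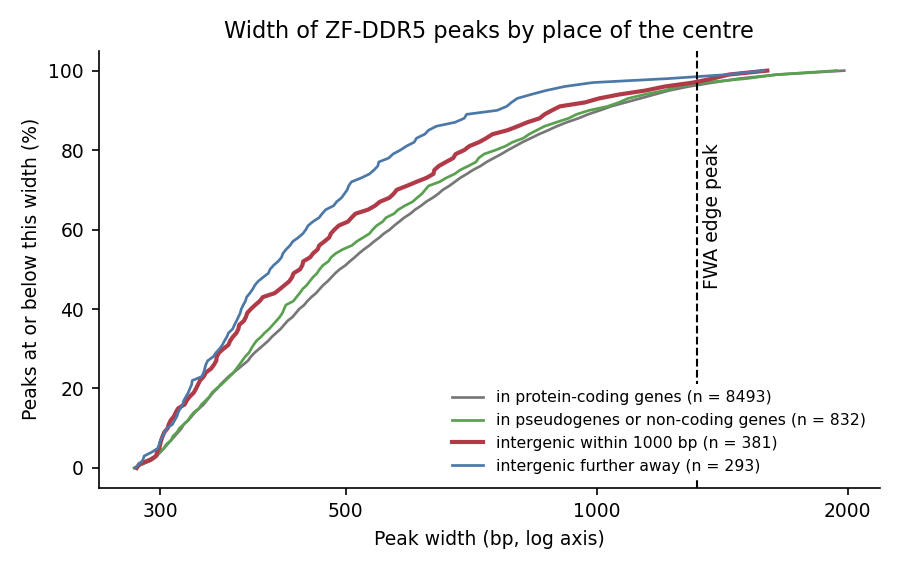
Share of peaks (%) at or below each width (bp, log axis), with 1 line for each place of the peak centre and a dashed line at the peak at the FWA edge, 1320 bp. The line of the 381 members lies between those of peaks in protein-coding genes (median 492 bp) and of intergenic peaks further away (median 406 bp).

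Many members were not confined to intergenic sequence. Of the 381, 216 (56.7%) touched no protein-coding gene, 131 (34.4%) reached into 1 neighbour and 34 (8.92%) reached into both, covering the whole interval between them. Of the 203 kb under members, 45.7 kb (22.5%) lay inside protein-coding genes, and 25 members had over 50% of their bases there. The 3 groups differed in width, with medians of 382.5 bp for peaks that reached no gene, 495 bp for those that reached 1 and 859.5 bp for those that reached both. A wide peak or a short interval makes such contact more likely, so this order follows in part from the geometry. The intervals under the 34 bridging peaks measured 67 to 678 bp, with a median of 242.5 bp. A median of 72.2% of the bases of these peaks lay in the neighbours, and their centres are intergenic by a median of only 62.75 bp.

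The bridging peaks joined genes of many functions, and 7 of the 10 widest members were of this kind. The widest, of 1602 bp, lay at chromosome 1, 3219142 to 3220743, over the 105 bp between AT1G09900 and AT1G09910, and reached 788 bp into the first and 709 bp into the other. A peak of 1522 bp joined AT5G36190 and AT5G36200. A peak of 1514 bp at chromosome 1, 4394011 to 4395524, joined GAPA-2, a subunit of the chloroplast glyceraldehyde 3-phosphate dehydrogenase, and ATAN11, a WD-repeat protein also called LWD1. PMS1, a DNA mismatch repair gene, and AT4G02465 shared a peak of 1434 bp over 234 bp of intergenic sequence. AT5G66250 and AT5G66260, which carries the synonym SAUR11, shared 1 of 1422 bp. A peak of 1376 bp joined AT5G07260 and XBAT33, a member of a family of ankyrin repeat ubiquitin ligases. CRK15 and CRK16, neighbouring cysteine-rich receptor-like kinase genes, shared 1 of 1350 bp over a spacing of 198 bp. Each of these last 2 genes also held a peak centre in its body. Reads of near-identical copies can be shared between them. How alike CRK15 and CRK16 are, and whether this affects their peaks, was not tested.

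The other 3 of the 10 widest reached into a single neighbour. These were a peak of 1463 bp beside QUL1, a relative of the pectin gene QUASIMODO2, 1 of 1400 bp beside AT1G29030 and 1 of 1381 bp beside AT5G38260. All 3 also touched a gene of another type, which the centre rule allows.

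**Figure D2:**
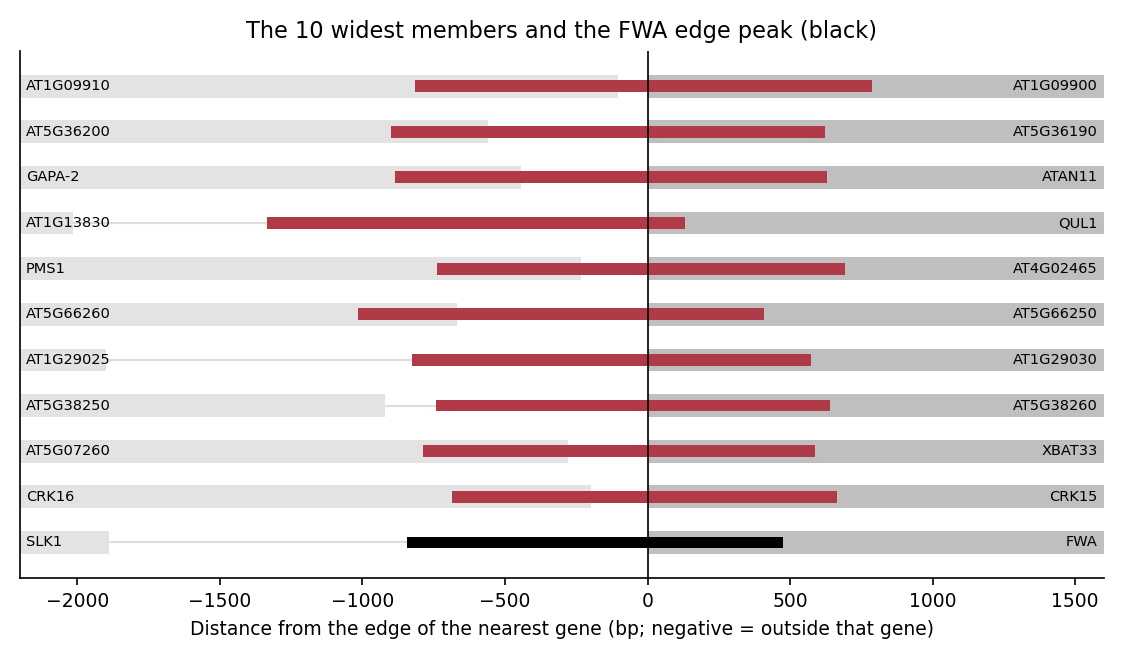
The 10 widest members (red) and the peak at the FWA edge (black), drawn to scale by distance (bp) from the edge of the nearest gene, which is the dark bar on the right, with the light bar on the left for the other neighbour. The horizontal order is not that of the chromosome or of transcription. In 7 of the 10 the peak spans the gap and enters both genes, whereas the FWA edge peak ends inside the gap, 845 bp out.

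The centres of the members lay a median of 331 bp from the nearest gene edge, with quartiles at 93 and 632 bp. The first 100 bp outside an edge held 104 centres, or 25.3 per Mb of class sequence (Poisson 95% interval 20.6 to 30.6). The band from 100 to 250 bp held 60 at 12.4 per Mb (9.43 to 15.9), and the band from 250 to 500 bp held 85 at 14.0 per Mb (11.2 to 17.3). Density in the first band was higher than in each of these on 5 of 5 chromosomes. From 500 to 750 bp there were 68 centres at 15.6 per Mb (12.1 to 19.8). From 750 to 1000 bp there were 64 at 19.5 per Mb (15.0 to 24.8), an interval that overlaps that of the first band. All 104 peaks of the first band reached into a gene, which their width makes unavoidable, since the narrowest member measured 281 bp. In the second band 48 of 60 did so, and in the third 12 of 85. The centres nearest to an edge were 1 bp outside it, in 3 peaks. These lay beside DPMS1, a dolichol phosphate mannose synthase gene, and AT1G20580 (463 bp), beside AT3G43260 and AT3G43270 (725 bp), and between AT3G62240 and UBQ5, a ubiquitin gene (901 bp).

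Members occurred in intervals of all lengths, at a higher density in short ones. The spacing between the 2 neighbouring protein-coding genes had a median of 1809 bp at the members (quartiles 895 and 3349 bp), against 877 bp over all 23810 such intervals of the annotation (quartiles 267 and 2202 bp). Long intervals hold more sequence and so more chances for a centre, and the count was therefore set against the sequence. Intervals of up to 500 bp held 48 members at 28.5 per Mb (Poisson 95% interval 21.0 to 37.8), those of 500 to 1000 bp 61 at 21.3 per Mb (16.3 to 27.4) and those of 1000 to 2000 bp 102 at 16.6 per Mb (13.6 to 20.2). From 2000 to 4000 bp there were 94 members at 14.3 per Mb (11.5 to 17.5), and beyond 4000 bp 76 at 14.0 per Mb (11.1 to 17.6). The shortest intervals were denser than the longest on 4 of 5 chromosomes, and the density in the shortest ranged from 12.0 to 40.3 per Mb. Short intervals lie wholly near an edge, so this order is not independent of that by distance.

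**Figure D3:**
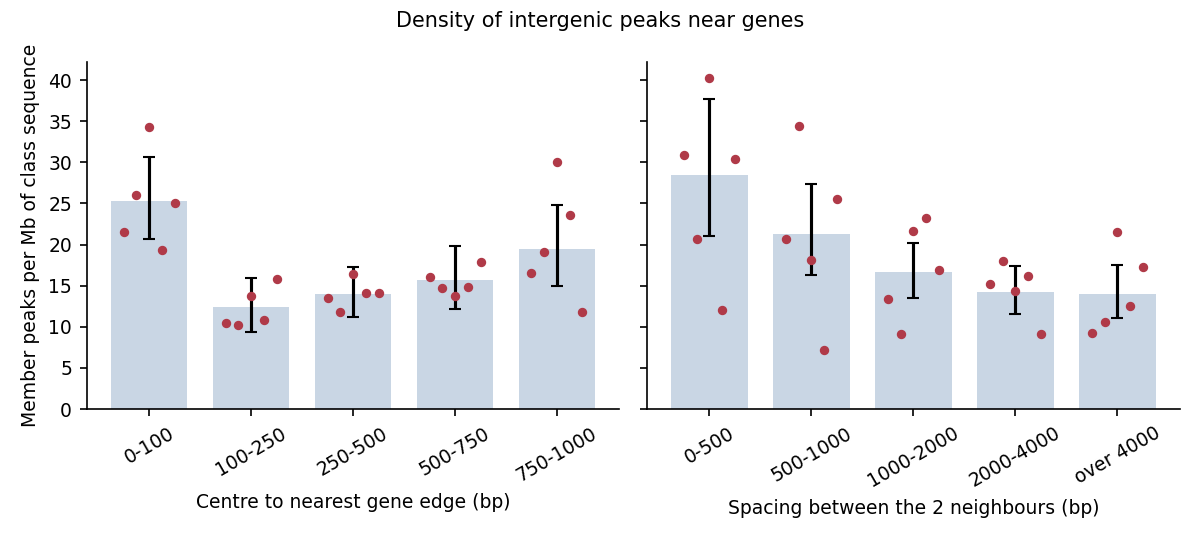
Members per Mb of intergenic sequence of the same class, by distance of the centre from the nearest gene edge (left, bp) and by spacing of the neighbours (right, bp). Bars give all chromosomes together with Poisson 95% intervals, and points give the 5 chromosomes. The first 100 bp reached 25.3 per Mb and the next band 12.4, and the bars on the right fall from 28.5 to 14.0.

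At the extremes of spacing, the 5 shortest intervals held peaks of 454 to 1602 bp and the 5 longest held peaks of 332 to 904 bp. The shortest interval, 67 bp between AT3G57900 and AT3G57910, was spanned by a peak of 478 bp. The next were 104 bp between DPMS1 and AT1G20580 and 105 bp under the widest member, of 1602 bp. After these came 109 bp between IQD30, an IQ-domain gene, and AT1G18850 (peak 454 bp), and 124 bp between OTC, the ornithine carbamoyltransferase gene, and AT1G75335 (507 bp). The longest was 67708 bp on chromosome 3, between AT3G31350 and AT3G31402, with a peak of 332 bp at 333.5 bp from the second. The following 4 were 26273 bp beside PUB8, a U-box gene (372 bp), 23241 bp between AT2G11570 and AT2G11620 (904 bp), 22952 bp between HA8, a plasma membrane proton pump gene, and AT3G42660 (337 bp), and 16613 bp between AT1G32810 and UBP11, a ubiquitin protease gene (595 bp). Only 11 members lay in intervals of over 10000 bp. The 5 narrowest members, of 281 to 283 bp, had as their nearest genes AT3G53970, AT1G63330, AT3G58440, HAF2, which encodes a TAF1-type histone acetyltransferase, and AT3G51660.

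**Figure D4:**
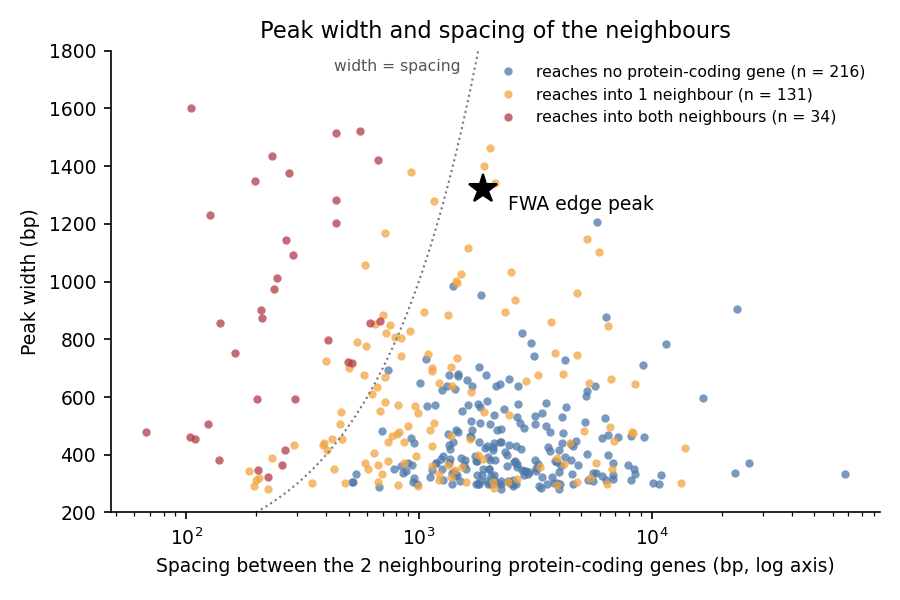
Width of each member (bp) against the spacing of its 2 neighbours (bp, log axis), coloured by the number of neighbours it reaches into. The dotted curve marks equal width and spacing. Bridging peaks (red) lie at spacings of 67 to 678 bp, and the FWA edge peak (star) lies at 1888 bp with few members of its width to the right of the curve.

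The peak at the FWA edge was among the widest members, in an interval of ordinary length for a member. It lay at chromosome 4, 13037515 to 13038834, between SLK1, a SEUSS-like transcriptional co-regulator gene, and FWA (AT4G25530). Its width of 1320 bp ranked 12 of 381, against a median of 441 bp. The spacing of 1888 bp ranked 181 from the longest, near the members' median of 1809 bp. Over all 23810 intervals of the annotation the median was 877 bp and the upper quartile 2202 bp. The centre lay 185.5 bp from FWA and 1703.5 bp from SLK1. The peak reached 475 bp into FWA and did not reach SLK1. Its remaining 845 bp outside genes ranked 11 of 381 and covered 44.8% of the interval.

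Few members combined that width with that much intergenic sequence. Of the 11 wider members, 7 bridged 2 genes in intervals of at most 667 bp. Among the 131 that reached into a single neighbour the FWA edge peak ranked 5 by width. Among the 37 members with a spacing within 10% of its own it ranked 3, and the median width of those 37 was 391 bp. A single other member, the peak beside QUL1 at chromosome 1, 4741871 to 4743333, was at least as wide and had at least as many bases outside protein-coding genes, with 1333 bp in an interval of 2014 bp. That peak overlapped the tRNA genes AT1G13840 and AT1G13850, whereas the FWA edge peak touched no gene of another type. The 5 members nearest to it in width measured 1281 to 1376 bp. One bridged CRK15 and CRK16, 1 bridged AT5G07260 and XBAT33, and 1 bridged AT5G46440 and AT5G46450. The remaining ones reached 584 bp into OVA1, an organellar methionyl-tRNA synthetase gene (width 1342 bp), and 254 bp into AT3G63052, next to the F-box gene EDL3 (1281 bp). FWA itself held 1 further peak centre in its body. The nearest other peak centre was 2053 bp from that of the edge peak, against a median of 3279 bp over the members. What these ranks say about the zinc finger was not tested.

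The 381 members were flanked by 748 different protein-coding genes, or 2.73% of the 27444 in the table. They lay in 378 intervals. In 3 of these 2 members shared the interval, between OTP51 and AT2G15830 (298 and 311 bp), between LUL2 and the aquaporin gene PIP2A (700 and 429 bp) and between AT4G30825 and AT4G30830 (531 and 368 bp). In the second pair each peak lay at its own gene, 52.5 bp from LUL2 and 68 bp from PIP2A. Of the flanking genes, 215 (28.7%, Wilson 95% interval 25.6% to 32.1%) also held a peak centre in the body. The share over all protein-coding genes was 26.9%, within that interval, and the count is no result about the flanking genes. The flanking genes were of ordinary length, with a median of 2057 bp against 2078 bp overall. Neither neighbour had a peak in its body for 193 members, a single neighbour had for 157 and both had for 31. By length, the shares were 11.9% of flanking genes against 9.91% of all genes up to 1000 bp long, 17.4% against 20.1% from 1000 to 2000 bp, 31.8% against 29.5% from 2000 to 3000 bp, and 50% against 43.0% over 3000 bp, so the direction was not the same in every length class.

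Members on both flanks of the same gene, at any distance from it, were found at 8 of the 748 flanking genes. Among them was NRPC2, which encodes the second largest subunit of RNA polymerase III, with peaks of 482 bp, 397.5 bp from its edge on the RHA1 side, and of 440 bp, 1838.5 bp from its edge on the RTL3 side, and 1 peak in the body. At AT5G66050 both flanking peaks were wide, at 1203 and 1025 bp. At AT2G38680 the peaks were 417 and 506 bp wide. The others were AT2G02770, AT2G16940, AT3G49520, AT3G51370 and AT3G53960. Only at AT3G51370 did both peaks lie within 1000 bp of the gene, at 206.5 and 947.5 bp. At each other gene a peak lay further off, up to 5402.5 bp at AT2G16940, and nearer to a different gene.

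The members lay in gene-rich surroundings. A median of 27 protein-coding genes had their midpoint within 50000 bp of a member's centre, against 28 for peaks in protein-coding genes, 19 for peaks in pseudogenes or non-coding genes and 20 for intergenic peaks further away. Fewer than 10 such genes were found around 10 members (2.62%), against 87 (29.7%) of the further intergenic peaks, a difference that follows in part from the limit of 1000 bp. Another peak centre lay within 1000 bp of 30 members (7.87%), against 8.72% of peaks in protein-coding genes.

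Genes of non-coding types lay under some members although no centre did. Of the 381, 56 overlapped such a gene by at least 1 bp, and 192 touched no annotated gene of any type. The 192 were narrow, with a median of 380 bp and none over 984 bp, which follows in part from the condition that the whole peak avoids every gene. The types touched were tRNA genes by 21 members, long non-coding RNA genes by 13, other classes of non-coding RNA by at most 7 each, pseudogenes by 4 and transcribed pseudogenes by 4. Apart from tRNA genes, contacts of the other peaks with these types were not counted, so nothing is read from these numbers. The share touching a tRNA gene was 5.51%, against 0.294% of peaks in protein-coding genes, 1.80% of peaks in pseudogenes or non-coding genes and 0 of the 293 further intergenic peaks, a count that allows a share of up to 1.02%. Where tRNA genes lie in the genome differs between these classes, and the difference was not tested. In the 21 members the centre lay a median of 67.5 bp from the tRNA gene, and their median width was 548 bp. Their nearest protein-coding genes included BON3 at 11.5 bp, AT2G47090 at 68.5 bp and TIM8 at 216.5 bp.

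Of 17 HD-ZIP IV homeodomain genes, the family of FWA, only FWA flanked a member (5.88%, beside 2.73% of all genes). That member is the edge peak, which was chosen for comparison beforehand. Within their bodies 9 of the 17 (52.9%) held a peak centre, beside 26.9% of all genes. None of the 381 members was flanked by any of the 31 listed genes of DNA methylation and related silencing, 5 ISWI complex genes, 17 flowering genes or 14 clock genes. The lists do not hold every such gene. NRPE7 encodes a subunit of RNA polymerase V, which acts in RNA-directed DNA methylation. It is not listed, was named after its values were seen, and was the nearest gene, at 924.5 bp, to a member of 638 bp. The flowering genes EMF1 and LATE, also unlisted and seen afterwards, were nearest to members of 363 and 391 bp, at 525 and 816 bp. FWA is not in the flowering list. The clock list leaves out ATAN11 (LWD1), which flanked the bridging member of 1514 bp. Counts of 0 were also found for the 18 genes whose symbol begins with HSP in capitals and for 107 small cysteine-rich peptide genes. Heat shock protein genes written otherwise did flank members, as seen afterwards, namely Hsp70-15, 99 bp from the centre, and Hsp81.4. At the background of 2.73% such short lists hold few neighbours in any case, and nothing is read from these zeros.

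Transcription factor families supplied several neighbours, each with a small count. Of 120 MYB genes 6 (5.00%) flanked a member, of 67 WRKY genes 4 (5.97%), of 77 AGAMOUS-like genes 4 (5.19%) and of 25 ethylene response factor genes 2 (8.00%), beside the 2.73% of all genes. The widest peak with a MYB gene as its nearest gene measured 636 bp, at 209.5 bp from MYB70, and the closest centre was 17.5 bp from MYB110. MYB108 and MYB13 were also the nearest genes to their peaks, at 818 and 911 bp. A peak of 510 bp lay 472.5 bp from AGL6, a floral MADS box gene, and peaks of 385 and 372 bp lay 527 and 521.5 bp from AGL30 and AGL81. WRKY62 and WRKY13 had peaks of 336 and 392 bp at 582.5 and 870.5 bp. ERF8 had 1 of 331 bp at 254 bp. For the remaining flanking genes of these families the peak lay nearer to the other neighbour, as at ERF4 (1419.5 bp away) and MYB96 (1511 bp). Transcription factor genes of other families were not counted.

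Of 63 auxin response genes 3 (4.76%) flanked a member, beside 2.73% of all genes, and in all 3 the other neighbour was nearer. AT5G66260, with the synonym SAUR11, is not among the 63, because its symbol is the locus name. It flanked the member of 1422 bp, which reached 347 bp into it. The peak between NF-YB3, a CCAAT-binding factor subunit gene, and IAA14, a repressor of auxin response in lateral root formation, measured 1033 bp and lay 34 bp from NF-YB3 and 2464 bp from IAA14. The peaks at IAA16 and IAA11 measured 672 and 647 bp and lay 993.5 and 666 bp from them. Of 44 ribosomal protein genes 2 (4.55%) flanked a member, RPS2 at 182.5 bp (334 bp wide) and RPL5B at 821.5 bp. Of 229 cytochrome P450 genes 1 (0.437%, beside the same 2.73%) did so, CYP78A8, at 5721 bp from the peak. Within their own bodies 83 of the 229 (36.2%) held a centre, beside 26.9% of all genes. That share varied widely between the lists, from 0.935% of the 107 small cysteine-rich peptide genes to 60% of the 5 ISWI complex genes. Of 58 UDP-glycosyltransferase genes 1 (1.72%) flanked a member, UGT85A7, with a peak of 823 bp at 22 bp. These counts were not tested. Of the 378 intervals 61 had 2 neighbours with gene symbols, beside 3903 of all 23810 intervals. In 2 of the 61 the symbols shared a stem, CRK15 with CRK16 and NAC048 with NAC049 (291 bp). Over all intervals 559 of 3903 such pairs (14.3%) shared 1, against 3.28% here.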

How the data were processed

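ChIP-seq seedlings fell into 4 groups by their titles, and 1 processed file, a peak list with 3 columns (chromosome, start, end) and no score, was analysed here. Per the submitters' processing notes, the build was TAIR10 and the tools were deepTools 3.5.1, Picard 2.25.6, SAMtools, Bowtie2 2.4.2 and fastp 0.20.1. The list depends on the peak caller, its cutoff, a control and any pooling of replicates, none of which the sources used here give. Depth is unknown. Centres were compared with 27444 protein-coding and 10455 other genes of the RefSeq TAIR10.1 table, overlapping protein-coding genes being merged. Densities use sequence outside every gene. The class assignment was checked on planted intervals. Python 3.11.15, pandas 2.3.3, numpy 2.4.6, scipy 1.17.1 and matplotlib 3.10.9 were used. No test was run, since peaks of 1 list are not replicates. Planned work on gene orientation and promoter windows needs strand and sequence and was not run. Named genes are the neighbours of the extreme members in width, spacing and distance, of the FWA edge peak and of the members nearest to it in width, and genes of fixed symbol lists. Genes with members on both flanks, shared intervals and tRNA neighbours were added after their values were seen. Members and lists were chosen with earlier results of these data known. Symbol lists hold only genes so named.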

Additional observations from a re-analysis of the deposited data

How the results depend on the processing

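Of 37 alternatives, 26 kept a count or rank within 1.5 times, or a median within its binomial 95% interval. The number of members, 381, was 249 with a limit of 500 bp, 575 with centres in pseudogenes and non-coding genes counted, 192 with the whole peak outside every gene and 153 among the wider 50% of peaks, each by construction. Moving the peaks by 50 bp gave 392 and 407. The median width was 380 bp for peaks wholly outside genes. The median distance was 139.5 and 490.75 bp with limits of 500 and 2000 bp, and 93 bp from the nearest end of the peak. The median spacing was 1189 and 2429 bp with these limits and 1306 bp with neighbours of any gene type. Without each chromosome in turn the medians lay between 432 and 444.5 bp (width), 326.5 and 348.75 bp (distance) and 1752 and 1848.5 bp (spacing). The FWA edge peak ranked 11 to 17. The alternative on gene ends was not run, as the table has no strand. No paired analysis was possible because the results come from no test and from 1 list.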
